A study of Mus musculus with 12 samples.

Results

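The autophagosome machinery is described here as 37 mouse genes whose products start, expand, close and fuse the autophagosome, and their messenger levels were followed in the myocardium of diabetic mice. The genes were taken by name from a list built on the known roles of their products, and the list was drawn up with earlier results of these data known. Of the 37 genes, 36 had a probe set named for them alone, and 35 of these were bright enough to be tested among 13653 genes of 19505 with a named probe set. Atg4c lay under the limit for dim genes on the array, and Vmp1 was not analysed here. The data came from 12 Affymetrix arrays of myocardial tissue, 4 in each of 3 groups, with tissue of 1 mouse behind each array according to the design. NC mice received vehicle on 5 days. DM mice received streptozotocin, a toxin of the insulin-producing beta cell, on 5 days, and counted as diabetic at a fasting blood glucose of at least 16.7 mM after 2 weeks. AngIV mice received the same streptozotocin course and then an infusion of angiotensin IV, a short fragment of angiotensin II. The dose, called high in the sample titles, was 2.88 mg/kg per day from week 8 to week 24. The tissue of all 3 groups is given as taken at 6 months, and whether this counts age or time in the experiment is not told apart here. Strain and sex are not given in the sources used here. The groups follow the sample titles; a disease-state tag on the same samples goes against the titles and was not used.

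Autophagy encloses cytoplasm, including worn mitochondria, in a double membrane that then fuses with the lysosome. The heart relies on it during starvation and for turnover of material within its long-lived contractile cells. The ULK1 kinase complex starts the process, and a lipid kinase complex built around VPS34 and Beclin 1 marks the growing membrane with phosphatidylinositol 3-phosphate. Lipid transfer proteins feed the membrane, conjugation enzymes attach proteins of the LC3 family to it, ATG4 proteases prime and recycle LC3, and tethers and SNARE proteins join the closed vesicle to the lysosome. Much of this control acts on the proteins rather than on messenger levels.

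Promoters of 4 members are shown: those of Ulk1 and Atg101, the members with the lowest p, and those of Atg3 and Rubcn. The E-box was in windows of 4 members, Atg3, Atg5, Atg7 and Rubcn. Of these, Atg3 and Rubcn were below an unadjusted limma p of 0.05 in some comparison, and Atg5 and Atg7 in none. The pair shown is thus no guide to whether the motif goes with a difference. The binding element of the factor TFEB, a regulator of lysosomal and autophagy genes, has the E-box CACGTG as its core. Each sequence is the 250 bases before a RefSeq start (build GRCm38.p6), read 5′ to 3′ along the gene's strand, with CACGTG in capitals. The windows lie at chr5:110810082-110810331 on the minus strand for Ulk1, chr15:101284051-101284300 on the plus strand for Atg101, chr16:45158579-45158828 on the plus strand for Atg3 and chr16:32868367-32868616 on the minus strand for 1 of the 2 Rubcn starts.
Ulk1: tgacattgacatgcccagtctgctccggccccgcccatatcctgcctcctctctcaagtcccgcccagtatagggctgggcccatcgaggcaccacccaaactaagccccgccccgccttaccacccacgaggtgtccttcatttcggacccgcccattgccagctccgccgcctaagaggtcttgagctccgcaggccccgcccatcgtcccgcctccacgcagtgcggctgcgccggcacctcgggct
Atg101: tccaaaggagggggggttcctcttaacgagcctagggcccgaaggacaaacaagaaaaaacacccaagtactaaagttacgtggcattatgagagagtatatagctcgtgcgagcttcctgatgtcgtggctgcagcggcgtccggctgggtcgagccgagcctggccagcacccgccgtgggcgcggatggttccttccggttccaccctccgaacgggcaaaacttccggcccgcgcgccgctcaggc
Atg3: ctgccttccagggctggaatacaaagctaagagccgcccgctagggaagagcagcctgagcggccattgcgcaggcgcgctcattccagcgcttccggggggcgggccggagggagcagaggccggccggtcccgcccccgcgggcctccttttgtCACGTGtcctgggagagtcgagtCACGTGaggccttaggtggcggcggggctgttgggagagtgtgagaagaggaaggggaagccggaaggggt
Rubcn: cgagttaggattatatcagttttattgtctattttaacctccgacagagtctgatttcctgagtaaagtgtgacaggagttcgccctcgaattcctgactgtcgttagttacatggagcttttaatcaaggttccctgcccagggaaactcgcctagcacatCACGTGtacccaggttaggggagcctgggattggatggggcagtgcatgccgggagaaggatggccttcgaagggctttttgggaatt

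RefSeq windows were at hand for 28 of the 37 members, 33 windows in all. CACGTG, which reads the same on both strands, occurred in 4 of the 33 member windows (12.1%) and in 1978 of 32851 windows of all genes (6.02%). The Atg3 window held it 2 times, at bases 94 to 89 and 71 to 66 before the start. Those of Atg5 (bases 14 to 9), Atg7 (bases 132 to 127) and the Rubcn window above (bases 88 to 83) held it once. The forkhead element GTAAACA, searched on both strands and bound by factors of the FOXO family, was in 0 of 33 member windows and in 1040 of all windows (3.17%). A match describes letters in these windows and not binding, and the 4 windows printed are not a sample of the 33.

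The tissue carried the signature of heart muscle: all 10 cardiomyocyte markers lay above array background on every array, where background is the 95th percentile of 5222 negative control probe sets (5.39 to 5.60 on the log2 scale). Lists for T and B cells, neutrophils and adipocytes lay below background on all arrays. The mean log2 level of the atrial list varied more, from 4.68 to 7.87 on NC arrays, 4.36 to 7.35 on DM arrays and 4.66 to 4.92 on AngIV arrays. Myl7, the atrial myosin light chain, exceeded background on 5 arrays, NC 1, NC 3, DM 1, DM 2 and DM 4, none of them an AngIV array. With an atrial covariate in the fit, 3 members were higher at unadjusted p in DM against NC, 3 in AngIV against DM, 10 in AngIV against NC and 7 in the pooled comparison, beside 3, 5, 11 and 7 without it. In AngIV against DM, unadjusted limma p with the covariate was 0.115 for Atg4d, 0.188 for Atg101 and 0.171 for Wdr45b. All of these were below 0.05 without the covariate. Fibroblast markers averaged 6.92 to 7.59 in NC, 6.99 to 7.22 in DM and 6.60 to 7.09 in AngIV. Macrophage markers averaged 5.31 to 5.59, 5.37 to 6.49 and 5.40 to 6.28. The smooth muscle and pericyte list averaged 6.21 to 7.25, 6.09 to 6.64 and 6.62 to 6.85, so that its AngIV and DM ranges barely overlapped, and the endothelial list 7.21 to 7.45, 7.22 to 7.63 and 7.27 to 7.70. The part of these 4 cell types in the results, including the 5 members higher in AngIV than in DM, was not tested. In whole tissue, fewer cells of a type and less RNA per cell cannot be told apart. Of the members, 22 lay above background in all 3 groups, Ulk1, Atg14 and Atg4b in 1 or 2 groups, and 11 in none, so for these 14 a log2 difference is given without a fold.

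No member passed an adjusted p of 0.05 in limma in any comparison, yet the members below an unadjusted p of 0.05 were all higher, and most were in AngIV against NC. In DM against NC 0 of 35 members were called, beside 3 genes (0.022%) of all tested; 3 members were higher at unadjusted p (Atg14, Atg3 and Epg5; 8.57%) and 0 lower, beside 5.62% higher and 5.08% lower of all genes. In AngIV against DM 0 of 35 were called, as were 0 genes (0%) of all; 5 members were higher (Ambra1, Atg101, Atg4d, Rubcn and Wdr45b; 14.3%) and 0 lower, beside 5.27% and 3.51% of all genes. In AngIV against NC 0 of 35 were called, beside 293 genes (2.15%); 11 members were higher (31.4%) and 0 lower, beside 10.9% and 7.74% of all genes. With both diabetic groups pooled against NC, 0 of 35 were called, beside 180 genes (1.32%); 7 were higher (20%) and 0 lower, beside 9.02% and 7.33% of all genes. The comparisons share NC or DM arrays, so their counts are not independent. The smallest adjusted p among the members was 0.0764, for Ulk1 in AngIV against NC. Over 6759 genes above the negative controls, an alternative chosen after the data were seen, 633 genes were called in AngIV against NC. Of the 25 members tested there, 4 passed in limma: Ulk1 (adjusted p = 0.0354), Atg101 (0.0356), Vps11 (0.0362) and Atg4d (0.0464). Over the 24 alternatives their adjusted p ranged from 0.0354 to 0.191, 0.0356 to 0.303, 0.0362 to 0.21 and 0.0464 to 0.255, and Ulk1 entered that set only through its AngIV level.

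**Figure D1:**
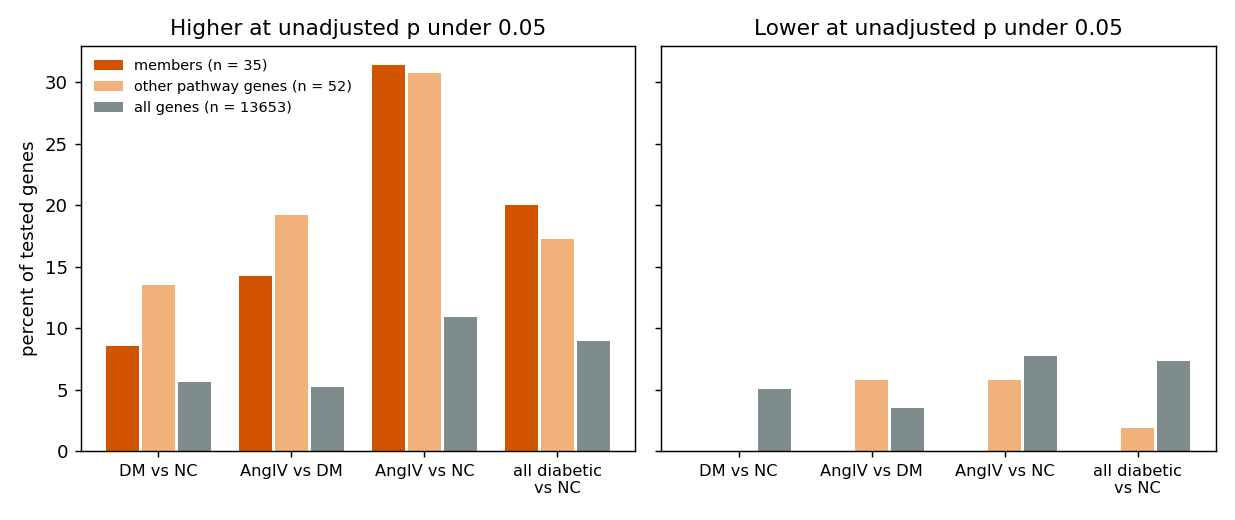
Percent of members (n = 35), of other autophagy pathway genes (n = 52) and of all tested genes (n = 13653) that were higher or lower at an unadjusted limma p under 0.05, in each of 4 comparisons. In AngIV against NC 31.4% of members were higher, beside 10.9% of all genes, and 0 were lower.

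Single arrays moved these counts. In DM against NC the 3 higher members became 1 without NC 2 and 1 without DM 2. In AngIV against DM the 5 became 1 without DM 3, 3 without DM 4, and 2 without AngIV 1 or without AngIV 4. In AngIV against NC the 11 became 5 without NC 2, and in the pooled comparison the 7 became 4 without NC 2. Without the 5 arrays with Myl7 above background, NC 2, NC 4, DM 3 and all AngIV arrays were left. In that fit 8 members were higher in AngIV against NC. DM 3 was then the only DM array, so no count is given for the comparisons with DM. The median member stood, relative to the NC mean, at -0.14, -0.09, 0.11 and 0.11 on the 4 NC arrays, at 0.05, 0.04, 0.04 and 0.01 on the DM arrays and at 0.10, 0.15, 0.13 and 0.15 on the AngIV arrays. The AngIV arrays lay close together, NC 1 and NC 2 were low, and NC 3 and NC 4 reached the AngIV range.

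The ULK1 kinase complex held the members with the lowest p, ULK1 itself and ATG101, a small subunit that steadies ATG13. The log2 signal of Ulk1 was 4.99, 5.17, 5.42 and 5.05 on the NC arrays, 5.46, 5.73, 5.19 and 5.39 on the DM arrays and 5.44, 5.70, 5.53 and 5.94 on the AngIV arrays. All AngIV arrays lay above all NC arrays, while DM overlapped both. Ulk1 was 0.49 ± 0.14 (SE) higher in AngIV than in NC (limma, adjusted p = 0.0764) and 0.28 ± 0.14 higher in DM than in NC (adjusted p = 0.502), with only the AngIV mean above background. Atg101 read 5.19, 5.66, 5.51 and 5.76 in NC, 5.81, 5.91, 5.53 and 5.50 in DM, and 5.95, 5.83, 6.09 and 6.18 in AngIV. Its AngIV arrays lay above every NC array and overlapped DM only through AngIV 2. The difference from NC was 0.48 ± 0.14, or 1.40-fold (adjusted p = 0.0776), and from DM 0.33 ± 0.14, or 1.25-fold (adjusted p = 0.537). The other subunits did not follow. Ulk2, a kinase related to ULK1, averaged 6.87 ± 0.23 (SD, n = 4) in NC, 6.90 ± 0.07 in DM and 6.87 ± 0.04 in AngIV. Rb1cc1, which encodes the scaffold FIP200, differed by -0.13 ± 0.13 in DM and -0.09 ± 0.13 in AngIV from NC, and Atg13, below background, by 0.13 ± 0.16 and -0.06 ± 0.16. Of the 5 genes of the complex, 2 were higher at unadjusted p in AngIV against NC and 3 had a positive difference, beside 10.9% higher and 50.6% positive of all genes; the same shares stand behind the counts of the other roles below.

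**Figure D2:**
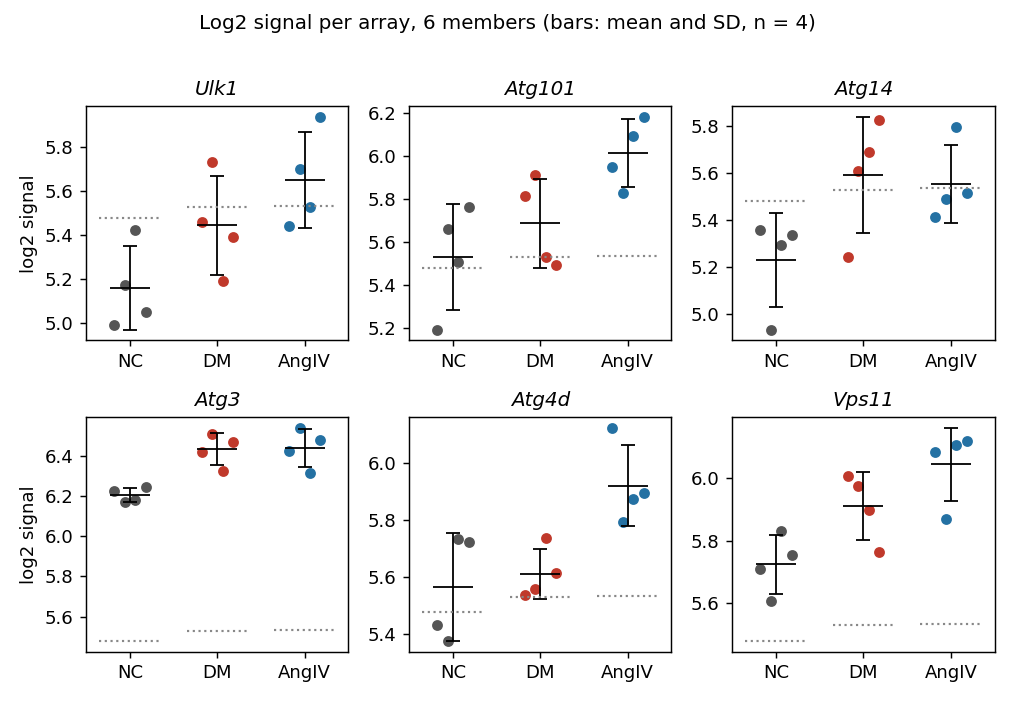
Log2 signal of Ulk1, Atg101, Atg14, Atg3, Atg4d and Vps11 on each of the 12 arrays by group; dots are arrays, black bars the mean ± SD (n = 4) and dotted lines the group mean of the 95th percentile of negative controls. For each of the 6 genes all 4 AngIV arrays lie above all 4 NC arrays, and for Atg3 the DM arrays do too.

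In the VPS34 lipid kinase complex and its regulators, Atg14, Uvrag, Ambra1 and Rubcn differed more between AngIV and NC than Becn1, Pik3r4 and Pik3c3. Between DM and NC only Atg14 differed more than Pik3c3. Becn1, which encodes the scaffold Beclin 1, read 6.10, 6.33, 5.98 and 6.10 in NC, 6.13, 6.07, 6.12 and 6.16 in DM, and 6.23, 6.22, 6.19 and 6.11 in AngIV, with all groups overlapping. It differed by -0.01 in DM from NC (95% interval -0.21 to 0.19) and by 0.07 in AngIV from DM (-0.13 to 0.27). Pik3r4, the VPS15 regulatory subunit, differed from NC by 0.02 ± 0.13 and 0.04 ± 0.13, and Pik3c3, the catalytic subunit VPS34 and below background here, by 0.16 ± 0.11 and 0.07 ± 0.11. Atg14, which directs the complex to the site of autophagosome formation, read 5.36, 4.93, 5.29 and 5.34 in NC, 5.24, 5.61, 5.69 and 5.82 in DM, and 5.41, 5.49, 5.79 and 5.52 in AngIV. Its NC arrays lay below all AngIV arrays and below 3 of the 4 DM arrays. The differences from NC were 0.36 ± 0.14 in DM (adjusted p = 0.358) and 0.32 ± 0.14 in AngIV (adjusted p = 0.226). Ambra1, a Beclin 1 partner that also acts on ULK1, read 6.36, 6.08, 6.37 and 6.08 in NC, 6.43, 6.33, 6.07 and 6.05 in DM, and 6.56, 6.39, 6.51 and 6.54 in AngIV. NC and DM covered nearly the same range, and AngIV lay above NC, by 0.28 ± 0.11 or 1.21-fold (adjusted p = 0.206). Uvrag, the subunit of the endosomal form of the complex, read 5.40, 5.49, 5.41 and 5.84 in NC, 6.04, 5.71, 5.60 and 5.37 in DM, and 5.71, 6.00, 5.87 and 5.93 in AngIV. It was 0.34 ± 0.14 or 1.27-fold higher in AngIV than NC (adjusted p = 0.212), and only NC 4 reached into the AngIV range. Rubcn, which encodes Rubicon, an inhibitor of the complex, read 5.23, 4.73, 5.20 and 5.43 in NC, 5.42, 5.13, 4.68 and 4.94 in DM, and 5.55, 5.70, 5.46 and 5.29 in AngIV. It was 0.46 ± 0.17 higher in AngIV than DM (adjusted p = 0.496), with DM 1 and AngIV 4 overlapping, and all 3 means were below background. Against NC, 7 of 7 members of this role were positive in AngIV (median 0.28) and 3 higher at unadjusted p.

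Among the lipid carriers and phosphoinositide readers, 6 of 7 had a positive difference in AngIV against NC (median 0.19), with 2 higher and 0 lower at unadjusted p. Atg9a, the scramblase whose vesicles seed the membrane, read 7.07, 7.46, 7.53 and 7.47 in NC, 7.02, 7.19, 7.39 and 7.22 in DM, and 7.37, 7.39, 7.40 and 7.39 in AngIV. The AngIV arrays were nearly equal, and lay inside the NC range. Atg2a, a lipid transfer protein below background here, read 5.07, 4.52, 5.37 and 4.86 in NC, 5.02, 4.78, 5.05 and 5.11 in DM, and 5.34, 5.20, 5.34 and 5.27 in AngIV. AngIV lay above every DM array and NC 3 above every AngIV array. Atg2a was 0.33 ± 0.15 higher in AngIV than NC (adjusted p = 0.237), and Atg2b differed by 0.11 ± 0.18. Wdr45b, a reader of the WIPI family, read 6.11, 6.16, 6.31 and 6.53 in NC, 6.36, 6.26, 6.13 and 6.38 in DM, and 6.48, 6.65, 6.45 and 6.52 in AngIV. AngIV lay above every DM array, and was 1.19-fold above NC (0.25 ± 0.11, adjusted p = 0.236). Its relative Wdr45 read 6.19, 6.39, 6.48 and 6.59 in NC, 6.61, 6.76, 6.50 and 6.57 in DM, and 6.64, 6.54, 6.55 and 6.68 in AngIV. With NC 4 inside the range of both diabetic groups, it was 0.20 ± 0.10 and 0.19 ± 0.10 higher than NC in DM and AngIV. Wipi2, the reader that recruits ATG16L1, read 6.51, 6.05, 6.64 and 6.61 in NC, 6.52, 6.60, 6.40 and 6.50 in DM, and 6.82, 6.66, 6.59 and 6.67 in AngIV. The groups overlapped, with NC 2 lowest, and Wipi2 was 0.23 ± 0.12 higher in AngIV than NC (adjusted p = 0.325). Wipi1 read 7.12, 7.26, 7.23 and 7.40 in NC, 6.90, 7.47, 7.32 and 7.41 in DM, and 7.10, 7.03, 7.10 and 7.08 in AngIV. It was the 1 member whose AngIV arrays all lay below the NC arrays, with a difference of -0.17 ± 0.12 (adjusted p = 0.469).

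Of the conjugation enzymes, Atg3 alone was below an unadjusted p of 0.05, in both DM and AngIV against NC. Atg3, the E2-like enzyme that hands LC3 to phosphatidylethanolamine, read 6.22, 6.17, 6.18 and 6.25 in NC, 6.42, 6.51, 6.33 and 6.47 in DM, and 6.42, 6.54, 6.31 and 6.48 in AngIV. Every diabetic array exceeded every NC array, and DM and AngIV covered the same range. The differences from NC were 0.23 ± 0.09 or 1.17-fold in DM (adjusted p = 0.362) and 0.23 ± 0.09 or 1.18-fold in AngIV (adjusted p = 0.171). Atg7, the E1-like enzyme shared by both branches, read 5.62, 6.15, 5.98 and 6.01 in NC, 5.86, 6.19, 5.91 and 6.03 in DM, and 6.06, 5.89, 6.24 and 6.51 in AngIV, overlapping throughout. Atg12 averaged 6.57 ± 0.08 (SD, n = 4) in NC, 6.37 ± 0.11 in DM and 6.42 ± 0.19 in AngIV, and its E2-like enzyme Atg10 averaged 6.83 ± 0.05, 6.69 ± 0.14 and 6.73 ± 0.20. Their differences from NC had adjusted p values of 0.543 and 0.712 in DM and 0.469 and 0.706 in AngIV. Atg5, the acceptor of ATG12, read 5.93, 6.02, 6.70 and 6.11 in NC, 5.95, 5.84, 6.08 and 6.07 in DM, and 6.07, 6.13, 5.87 and 6.07 in AngIV. NC 3 stood above the rest, and without it the AngIV difference turned from -0.15 to 0.02. Atg16l2 averaged 7.76 ± 0.41, 7.93 ± 0.23 and 7.65 ± 0.27, and Atg16l1, the partner that places the conjugate on the membrane, was below background and differed from NC by -0.16 ± 0.24 and -0.07 ± 0.24. Positive differences in AngIV against NC numbered 2 of 7 (median -0.09) for the conjugation genes, with 1 higher at unadjusted p.

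**Figure D3:**
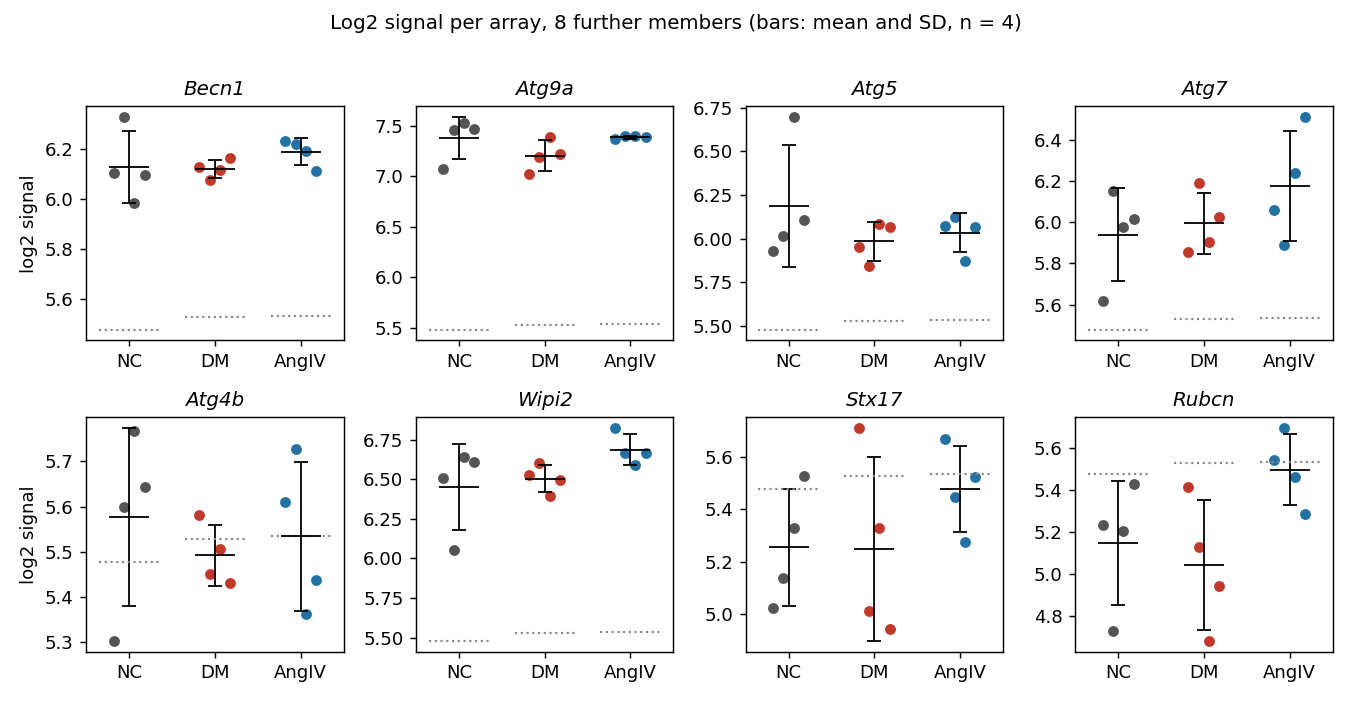
Log2 signal of Becn1, Atg9a, Atg5, Atg7, Atg4b, Wipi2, Stx17 and Rubcn on each array by group, drawn as dots with mean ± SD bars (n = 4) and dotted lines at the group mean of the 95th percentile of negative controls. The 3 groups overlap for Becn1, Atg5 and Atg7, and every group mean of Rubcn and Stx17 lies below its background line.

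Of the ATG4 proteases, Atg4d had the highest values under angiotensin IV. It read 5.43, 5.37, 5.73 and 5.72 in NC, 5.53, 5.56, 5.74 and 5.61 in DM, and 6.12, 5.79, 5.87 and 5.89 in AngIV. The AngIV arrays lay above all 8 others, by 0.36 ± 0.11 or 1.28-fold over NC (adjusted p = 0.105) and 0.31 ± 0.11 or 1.24-fold over DM (adjusted p = 0.495), while DM and NC differed by 0.04 ± 0.11. With the atrial covariate the difference from DM had an unadjusted limma p of 0.115. Atg4b, the form with the broadest activity on LC3 proteins, read 5.30, 5.60, 5.77 and 5.64 in NC, 5.58, 5.45, 5.51 and 5.43 in DM, and 5.61, 5.73, 5.36 and 5.44 in AngIV, with overlapping groups close to background. Atg4a differed from NC by -0.16 ± 0.10 in DM and -0.09 ± 0.10 in AngIV, below background. The name of its probe set points to a chromosome other than X, where the RefSeq starts of Atg4a lie. These values may therefore not be those of the Atg4a messenger, which was not tested, and the gene stays in the member counts. Atg4c, too dim to be tested, averaged 3.24 ± 0.09, 3.32 ± 0.04 and 3.34 ± 0.30 (SD, n = 4).

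Among the genes of tethering and fusion, Vps11 led. VPS11 is a shared core subunit of the HOPS and CORVET tethers. It read 5.71, 5.61, 5.83 and 5.75 in NC, 6.01, 5.98, 5.90 and 5.76 in DM, and 6.08, 5.87, 6.11 and 6.12 in AngIV. AngIV lay above all NC arrays, and 3 DM arrays did too. Its difference from NC was 0.32 ± 0.10 or 1.25-fold in AngIV (adjusted p = 0.0938) and 0.19 ± 0.10 in DM (adjusted p = 0.528). Vps39, a HOPS subunit, differed by 0.11 ± 0.11 in AngIV, and Snap29, a SNARE of the fusion step, by 0.01 ± 0.10. Epg5, a tether below background here, read 4.74, 4.45, 5.09 and 4.92 in NC, 5.12, 5.27, 4.92 and 5.16 in DM, and 5.15, 5.19, 5.05 and 4.95 in AngIV. NC 3 reached into both diabetic ranges, and Epg5 was 0.32 ± 0.13 higher in DM (adjusted p = 0.395) and 0.28 ± 0.13 in AngIV (adjusted p = 0.256). Stx17, a SNARE placed on the closed autophagosome, read 5.02, 5.14, 5.33 and 5.53 in NC, 5.71, 5.01, 5.33 and 4.94 in DM, and 5.67, 5.45, 5.27 and 5.52 in AngIV, overlapping throughout. Plekhm1, an adaptor for the tether, differed by 0.18 ± 0.13 in AngIV from NC. All 6 genes of this role had a positive difference in AngIV against NC (median 0.20), and 2 were higher at unadjusted p.

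**Figure D4:**
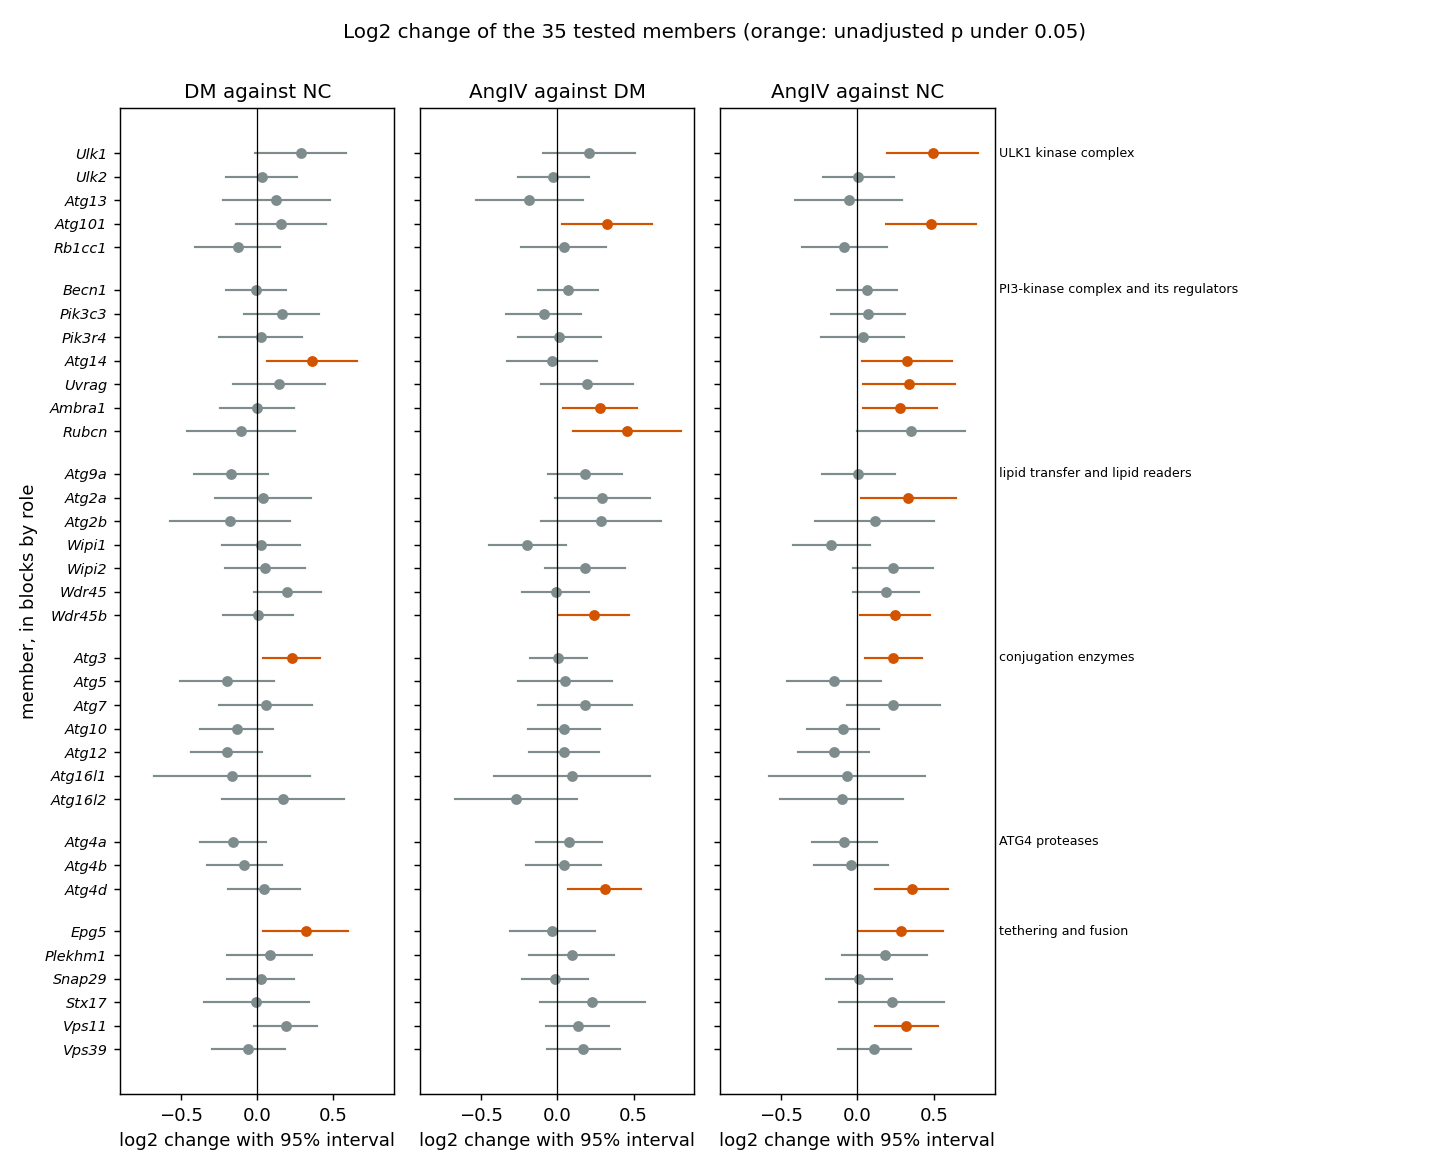
Log2 difference of each of the 35 tested members with its 95% interval, for DM over NC, AngIV over DM and AngIV over NC; orange marks an unadjusted limma p under 0.05. All orange points lie to the right of 0, with 3, 5 and 11 members in the 3 comparisons.

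Over all members, the median difference was 0.02 between DM and NC, 0.08 between AngIV and DM and 0.11 between AngIV and NC, beside -0.00, 0.01 and 0.00 for all genes. Positive differences numbered 21, 26 and 25 of 35 (60.0%, 74.3% and 71.4%), beside 49.6%, 52.9% and 50.6% of all genes. The whole range ran from -0.20 to 0.36, from -0.27 to 0.46 and from -0.17 to 0.49. The 95% interval lay within 1.5-fold either way for 32, 29 and 28 of the 35 members in the 3 comparisons. The 7 members whose interval passed that limit in AngIV against NC were Ulk1, Atg101, Rubcn, Uvrag, Atg2a, Atg14 and Atg4d, and the highest upper limit of all was that of Rubcn in AngIV against DM (0.81). The counts within 1.5-fold include members below background in some or all groups, which are given without a fold. For these the interval describes the array signal and sets no bound on a fold. Groups did not overlap for 1 member in DM against NC, higher, beside 2.84% higher and 2.45% lower of all genes. In AngIV against DM it was 3 higher (Atg2a, Atg4d and Wdr45b), beside 3.57% and 2.19%. In AngIV against NC it was 7 higher and 1 lower, beside 7.59% and 5.17%, and in the pooled comparison 1 higher, Atg3, beside 1.44% and 1.09%. In the pooled comparison the members below an unadjusted p of 0.05 were Ulk1 (0.39 ± 0.12, adjusted p = 0.117), Atg3, Vps11, Atg14, Atg101, Epg5 and Wdr45.

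A list held 55 other pathway genes (LC3 family, cargo receptors, tethers and SNAREs, mTORC1 and AMPK genes, transcription factors and complex partners). Of these, 52 were tested. In AngIV against NC, 293 of all 13653 genes (2.15%) were called in either direction, and 4 of the 52 were called, all higher. They were Foxo3, a transcription factor of autophagy genes (0.55 ± 0.10, adjusted p = 0.0154), Vps16, another core subunit of the tethers (0.53 ± 0.10, adjusted p = 0.0157), Bcl2l1, which encodes the Beclin 1 binding protein BCL-XL (1.27 ± 0.25, adjusted p = 0.0192), and Calcoco1, an autophagy receptor (0.47 ± 0.11, adjusted p = 0.0409). Foxo3 averaged 5.69 ± 0.11 (SD, n = 4) in NC, 5.95 ± 0.05 in DM and 6.24 ± 0.18 in AngIV. Vps16 averaged 5.23 ± 0.12, 5.44 ± 0.16 and 5.77 ± 0.05, with only the AngIV mean above background. Foxo3 and Bcl2l1 also passed in the pooled comparison (adjusted p = 0.0399 and 0.0448). At unadjusted p, 16 of the 52 (30.8%) were higher and 3 lower (5.77%) in AngIV against NC, beside 10.9% and 7.74% of all genes. In AngIV against DM 10 (19.2%) were higher and 3 lower, beside 5.27% and 3.51%, and in DM against NC 7 (13.5%) were higher and 0 lower, beside 5.62% and 5.08%; 0 were called in limma in these 2 comparisons. Map1lc3b, which encodes a protein of the LC3 family, was 0.40 ± 0.11 higher in AngIV than NC (limma, adjusted p = 0.0728). Its relatives Gabarapl1 and Gabarapl2 were 0.50 ± 0.16 and 0.23 ± 0.10 higher (adjusted p = 0.109 and 0.246). Map1lc3a differed by -0.28 ± 0.11 (adjusted p = 0.194) and Gabarap by -0.13 ± 0.09 (adjusted p = 0.461). Sqstm1, the receptor p62, was 0.41 ± 0.11 higher (adjusted p = 0.0657). Of 11 tested genes of the mTORC1 and AMPK complexes and their regulators, which act on ULK1, 0 were below an unadjusted p of 0.05 in AngIV against NC in limma, and Mtor differed by 0.10 ± 0.11. Prkag2, a regulatory subunit of AMPK, differed by 0.31 ± 0.12 in DM from NC (adjusted p = 0.375) and by -0.28 ± 0.12 in AngIV from DM (adjusted p = 0.554). In AngIV against NC, Tfeb differed by -0.26 ± 0.12 (limma, adjusted p = 0.255). Tfe3, another listed transcription factor and below background here, differed by 0.33 ± 0.11 in that comparison (adjusted p = 0.127). Foxo4, also below background, differed by 0.33 ± 0.14 in DM from NC (adjusted p = 0.406). From DM to AngIV its difference was -0.36 ± 0.14 (adjusted p = 0.505).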

How the data were processed

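The authors deposited log2 signals for 29129 probe sets, made with RMA per the submitters' processing notes; the annotation build is not given in the sources used here. RMA equalises the arrays' distributions and thereby removes global shifts. A gene was represented by its brightest probe set named for it alone, and the dimmest 30% (mean log2 under 3.40) were left out. Group means were fitted to all 12 arrays with limma 3.58.1 in R 4.3.3, Benjamini-Hochberg adjusted over 13653 genes and called at an adjusted p under 0.05; the procedure was tested on simulated data. Members and gene lists were chosen with earlier results of these data known. Every member with a probe set is named; values by array are given for members below an unadjusted p of 0.05 in any comparison and for Ulk1, Becn1, Atg9a, Atg5, Atg7, Atg4b, Wipi2 and Stx17, plus Wipi1, chosen after its values were seen. Arrays of a group correlated at 0.976 to 0.990. The number of arrays, 4 a group, limits the precision. Alternatives covered filters, probe choice, normalization, variance models, an atrial covariate, a replicate block and each array left out.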

Additional observations from a re-analysis of the deposited data

Results flagged for a closer look

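Among 108 sets of 4 arrays (36 members in 3 groups), 4 held an array far from the other 3 by Dixon's criterion, and chance alone gives about 1 in 20. Atg14 read 4.93 on NC 2, with the other NC arrays at 5.29 to 5.36. Atg9a read 7.07 on NC 1, with the others at 7.46 to 7.53. Atg12 read 6.70 on AngIV 4, with the others at 6.29 to 6.35. Vps11 read 5.87 on AngIV 2, with the others at 6.08 to 6.12.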

How the results depend on the processing

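Of the 26 member differences below an unadjusted p of 0.05, 0 changed sign in 597 alternative values; the causes of the moves below were not tested. Genes called in DM against NC, AngIV against NC and the pooled comparison changed from 3, 293 and 180. They became 20, 492 and 328 without the dimmest 50%, and 29, 576 and 433 with a variance trend. Over genes above negative controls they were 22, 633 and 462. With only the compared groups fitted they were 5 and 466 in the first 2 comparisons. Without the arrays with high Myl7, AngIV against NC had 102 genes called, and DM 3 was the only DM array left. Leaving out each array in turn gave 3 to 30, 0 to 5 (AngIV against DM), 104 to 469 and 49 to 338 genes called. In AngIV against NC the arrays that moved the count most were NC 1 (163 without it), NC 2 (107), NC 4 (185), DM 1 (469), AngIV 2 (155), AngIV 3 (106) and AngIV 4 (104). In the pooled comparison they were NC 1 (77), NC 2 (53), NC 3 (49), NC 4 (61), DM 2 (77), DM 4 (338), AngIV 2 (113) and AngIV 3 (86), in DM against NC NC 1 (10), NC 2 (5), DM 3 (9) and DM 4 (30), and in AngIV against DM DM 2 (1) and AngIV 2 (5). Members higher then ranged over 1 to 4, 1 to 7, 5 to 12 and 4 to 10, members lower over 0 to 1, 0 to 2, 0 to 1 and 0 to 1, and the AngIV against NC median over 0.080 to 0.21, highest without NC 3. Members higher were 3 in AngIV against DM with the atrial covariate, and array weights gave 1 member lower in that comparison. Over genes above negative controls 4 of 25 members were called in AngIV against NC, beside 633 of 6759 genes. Ulk1, 1 of the 4, entered only through its level in AngIV, where it is high, so its call there supports nothing. The pooled median was 0.032 in that setting. Over all members 153 of 3172 alternative values had another sign than the reported one, among them Pik3r4 in DM against NC (-0.093 to 0.11) and AngIV against NC (-0.081 to 0.13) and Ulk2 in AngIV against NC (-0.086 to 0.068). In 8 of the 153 the value moved by more than its standard error. These were, with the atrial covariate, Atg9a in AngIV against DM (-0.0064) and against NC (-0.14) and Plekhm1 in AngIV against DM (-0.041), and, with an array left out, Wipi2 in DM against NC (-0.080 to 0.12), Atg16l1 in DM against NC (-0.34 to 0.085) and AngIV against DM (-0.15 to 0.27), Atg5 in AngIV against NC (-0.24 to 0.019) and Pik3r4 in the pooled comparison (-0.087 to 0.12). Arrays with the same number shared no pairing (r from -0.115 to 0.208, 2 of 12 arrays closest to their own number); with the replicate block members higher were 3, 5, 10 and 6 and genes called 3, 0, 218 and 138.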
